A study of Mus musculus with 3 samples.

Results

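Granzymes, perforin and the proteins packed with them in cytotoxic granules were followed as 10 genes: the granzymes Gzma, Gzmb, Gzmk and Gzmm, the pore-forming protein gene Prf1, the matrix proteoglycan gene Srgn, the granule protease gene Ctsw, the granule membrane protein gene Nkg7, and the inhibitor genes Serpinb9 and Serpinb6b. They were taken as a list of names and matched by gene symbol. All 10 matched 1 gene each among the 55536 mouse genes of the tables, 22028 of which are protein-coding. The RNA measured was polyA RNA of activated regulatory T cells (Treg cells), primary cells of a male mouse aged 4 months with the genotype Foxp3CreERT2 x Rosa26YFP. In that genotype an inducible Cre recombinase is carried at Foxp3, and a YFP reporter sits at the Rosa26 locus. The labels trace the cells to hematopoietic cells of bone marrow, and the sources used here give neither the gate nor the stimulus that defined them. There are 3 libraries in 1 group with no control, labelled technical replicates 1, 2 and 3 of biological replicate 1. Every SD and p-value therefore measures the spread between these libraries and not that between animals.

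Cytotoxic lymphocytes store granzymes, a family of serine proteases, in secretory lysosomes bound to the negatively charged sugar chains of serglycin, the product of Srgn. On contact with a target cell the granule fuses with the plasma membrane, perforin opens pores, and the granzymes enter and cleave proteins that drive cell death. Granzyme B cuts after aspartate, granzymes A and K after basic residues and granzyme M after methionine or leucine. Lymphocytes also make cytosolic serpins that trap granzymes leaking into their own cytoplasm. Activated mouse Treg cells are known to use granzyme B, with or without perforin, to suppress other lymphocytes.

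The stretch that carries the catalytic serine is shown for the 4 granzymes because it marks what they share and where they differ. Each line is the spliced coding sequence of release M21 on mouse genome mm10 (GRCm38), 5′ to 3′, ending in exon 5 of 5. Capitals mark the 4 codons for glycine, aspartate, serine and glycine around the active-site serine.
Gzma: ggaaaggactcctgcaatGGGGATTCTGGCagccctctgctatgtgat
Gzmb: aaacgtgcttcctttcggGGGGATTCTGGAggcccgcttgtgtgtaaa
Gzmk: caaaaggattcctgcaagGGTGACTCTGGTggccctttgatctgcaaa
Gzmm: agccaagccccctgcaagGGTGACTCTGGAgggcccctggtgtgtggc
These stretches run from chr13:113094021-113095768 (minus strand) for Gzma, chr14:56259533-56260199 (minus strand) for Gzmb, chr13:113172006-113172902 (minus strand) for Gzmk and chr10:79694600-79695016 (plus strand) for Gzmm, with 1 intron inside each. The serine is codon 211 of 260 in Gzma, 203 of 247 in Gzmb, 213 of 263 in Gzmk and 210 of 264 in Gzmm. Aligned over their coding sequences, the 4 granzymes were 51.2% (Gzma with Gzmm) to 58.0% (Gzmb with Gzmk) identical. The longest run of bases shared by the whole transcripts of any pair of them was 19, in Gzmk and Gzmm. The inhibitors were also aligned with relatives outside the 10 genes. Serpinb6b was 86.3% identical to Serpinb6a and Serpinb9 was 86.0% identical to Serpinb9b, with shared runs of 57 and 62 bases. The 4 granzymes were not aligned with other granzymes such as Gzmc, so how close they are to those was not tested. The deposited posterior SD, which measures how far reads that fit several genes could move a gene's count, was 0 for all 10 genes in every library.

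Srgn encodes the scaffold that holds the granule proteases, and its attachment region is a run of alternating serine and glycine. In Srgn-201 this run begins at codon 90 of 152 and holds 10 serine-glycine pairs in a row, in exon 3 of 3 at chr10:62494980-62495075 (mm10, minus strand). Capitals mark the repeat, whose serines carry the sugar chains.
Srgn repeat: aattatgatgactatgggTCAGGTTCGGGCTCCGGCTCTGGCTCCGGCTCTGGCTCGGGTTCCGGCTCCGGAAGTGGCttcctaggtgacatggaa
The coding sequence is the same in Srgn-201, Srgn-204 and Srgn-205, the 3 transcripts that carried most of the gene's signal. Srgn-204 starts 19696 bases upstream of Srgn-201, so the gene has a distal and a proximal start, and their use could be read from the tables. The 250 bases before each RefSeq start are shown next to those of Gzmb, the granzyme with the highest level.
Srgn distal, chr10:62527446-62527695, minus strand: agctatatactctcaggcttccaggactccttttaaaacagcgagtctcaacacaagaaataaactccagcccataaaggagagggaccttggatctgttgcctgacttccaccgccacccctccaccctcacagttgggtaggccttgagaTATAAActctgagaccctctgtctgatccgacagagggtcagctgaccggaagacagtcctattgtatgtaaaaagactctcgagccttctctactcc
Srgn proximal, chr10:62507758-62508007, minus strand: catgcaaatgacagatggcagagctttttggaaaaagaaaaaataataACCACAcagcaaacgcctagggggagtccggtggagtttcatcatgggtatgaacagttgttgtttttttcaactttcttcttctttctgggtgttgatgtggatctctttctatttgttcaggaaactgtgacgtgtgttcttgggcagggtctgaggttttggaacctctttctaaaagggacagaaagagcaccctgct
Gzmb, chr14:56262335-56262584, minus strand: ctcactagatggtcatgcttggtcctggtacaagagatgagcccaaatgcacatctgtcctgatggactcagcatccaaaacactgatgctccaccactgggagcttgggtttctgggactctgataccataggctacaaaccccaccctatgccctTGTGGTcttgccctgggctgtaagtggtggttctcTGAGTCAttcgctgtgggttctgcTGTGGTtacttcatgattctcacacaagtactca
Sequences are from RefSeq (GRCm38.p6), and capitals mark matches to any of 6 motifs searched on both strands. The RefSeq start of Gzmb lies 74 bases upstream of the start in release M21.

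The motifs were the T-box core GGTGTG, the RUNX motif TGTGGT, the STAT motif TTCNNNGAA, the AP-1 motif TGANTCA, the TATA box TATAAA and the GC box GGGCGG. They were looked for from 250 bases before to 50 bases after each RefSeq start, in 32817 windows of 300 bases. RefSeq windows were found for 9 of the 10 genes, 11 windows in all, with no entry used for Ctsw. The RUNX motif was in 7 of the 11 windows, and in 16.8% of all windows. The T-box core was in 5 of 11 (19.1% of all windows), the STAT motif in 3 (8.29%), the GC box in 2 (35.6%), and the AP-1 motif (7.81%) and the TATA box (13.6%) in 1 each. In Gzmb the RUNX motif matched at -93 and -34 from the start, the AP-1 motif at -58 and the STAT motif at 38, the last of these beyond the bases shown. The TATA box match was in the distal Srgn window at -98, and the proximal window held 1 RUNX match, farther upstream. These are letter matches and carry no measurement of binding.

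The libraries held 10981924, 9700630 and 6667391 expected counts on genes in replicates 1, 2 and 3, where an expected count is an estimated number of fragments. A count of 0 would allow up to 3 counts, or 0.273, 0.309 and 0.450 CPM (counts scaled to library totals), and 3 counts served as the floor. Replicate 3 stood apart from the other two: the mean chi-square per gene was 11.4 between replicates 1 and 2, 30.7 between 1 and 3, and 30.3 between 2 and 3. All 9 T cell and Treg markers were detected, among them Foxp3 at 29.5, 28.7 and 49.8 TPM, the lowest of the list, and Cd4 at 315, 421 and 244 TPM. The highest of these markers were Trac at 2698 ± 562 TPM and Lck at 1215 ± 275 TPM (SD, n = 3 for each). Intervals given below are exact 95% intervals and cover counting error only, since the reads carry no molecular identifiers and may repeat a molecule.

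The cells transcribed the granule scaffold far more than the proteases, and among the granzymes almost all of the signal was Gzmb. Srgn had 1542 ± 130.2 TPM (a level per length that is scaled to 1 fixed total in each library; SD, n = 3), Nkg7 324.6 ± 59.4, Gzmb 172.7 ± 53.4 and Ctsw 158.8 ± 30.2. Serpinb6b followed with 29.5 ± 6.44, Serpinb9 with 14.4 ± 4.48, Gzma with 6.55 ± 2.62 and Prf1 with 5.50 ± 1.38. Gzmk and Gzmm were near the floor. The TPM of the 10 genes summed to 2217, 2221 and 2330, and the genes held 0.150%, 0.143% and 0.155% of the expected counts. Srgn alone took 70.2%, 63.3% and 71.4% of that summed TPM.

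**Figure D1:**
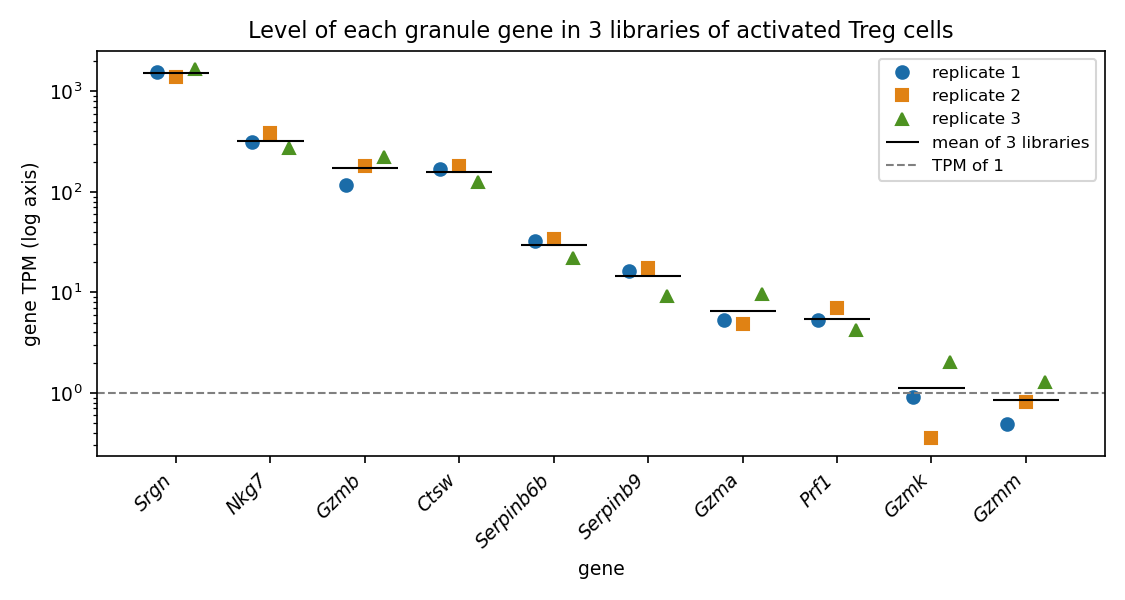
Gene TPM (log axis) of the 10 granule genes in replicates 1, 2 and 3 (points), with the mean of the 3 libraries (line) and the detection level of 1 TPM (dashed). Srgn is the highest at 1405 to 1664 TPM, Gzmb and Ctsw overlap, and Gzmk and Gzmm lie on either side of 1 TPM.

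A gene counted as detected if it reached 1 TPM in each library. By this rule 8 of the 10 genes were detected, where 45.3% of protein-coding genes and 21.5% of all genes were. The same 8 genes had more than 3 counts in every library, which 50.2% of protein-coding genes had. The median of log2(TPM + 1) over the 10 genes was 4.41 ± 0.39 (SD, n = 3), against 2.60 ± 0.06 over the 16783 protein-coding genes above 0 in any library. By mean TPM, Srgn ranked 75 among protein-coding genes, Nkg7 377, Gzmb 735 and Ctsw 821, while Prf1 ranked 8284.

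Among the granzymes, Gzmb (chr14:56258838-56262260, minus strand) had 116, 180.1 and 222 TPM in replicates 1, 2 and 3, from 1306, 1673 and 1531 counts. Replicate 3 was the highest and replicate 1 the lowest. Scaled by TMM library sizes, which correct counts for depth and composition, Gzmb in replicate 3 stood at 1.81-fold its level in replicate 1 (95% interval 1.68 to 1.95), and in replicate 2 at 1.42-fold (1.32 to 1.53). Granzyme B made up 94.6%, 96.8% and 94.5% of the summed granzyme TPM of the 4 genes.

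Gzma (chr13:113093825-113100981, minus strand), the tryptase-like granzyme A gene, had 5.27, 4.82 and 9.57 TPM from 33, 25 and 37 counts. It was again highest in replicate 3, at 2.06-fold its level in replicate 2, with an interval of 1.21 to 3.56. Gzmb exceeded it 22.0-fold, 37.4-fold and 23.2-fold within the 3 libraries. Gzmk (chr13:113171608-113225908, minus strand) rested on 7, 3 and 8 counts, or 0.92, 0.36 and 2.04 TPM. Gzmm (chr10:79689020-79695261, plus strand), whose product granzyme M is best known from natural killer cells, rested on 3, 6 and 7 counts, or 0.49, 0.81 and 1.28 TPM. For both, the interval of the highest over the lowest library included 1, at 0.89 to 21.7 for Gzmk and 0.82 to 21.6 for Gzmm, so no difference was detectable in these counts. In the release M4 counts of the same libraries, 14, 5 and 18 for Gzmk, that gene varied (adjusted p 0.00278 by the chi-square test), while Gzmm, with 19, 16 and 22, did not pass. What the M4 table counts is inferred, so its counts may not be separate fragments. The low Gzmm counts also depend on the quantification. In a second transcript table of the same libraries Gzmm had 0.63, 1.40 and 1.76 TPM. Its transcript Gzmm-201 had 12.3, 20.8 and 20.8 estimated counts there, and the gene did not vary by the chi-square test.

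All 4 granzymes had their highest TMM-scaled level in replicate 3. Of the other 6 genes, 5 had their lowest level there, and Srgn had its lowest in replicate 2. Scaling by total counts or by DESeq2 size factors gave the same 4 and 5 genes. Gzmk and Gzmm are part of that count and rest on 8 and 7 counts in replicate 3. For Prf1, the interval of replicate 3 over replicate 1 included 1 (0.55 to 1.10).

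Prf1 (chr10:61297833-61304680, plus strand) encodes perforin, the pore that lets granzymes into a target cell. It had 5.28, 6.98 and 4.24 TPM from 101, 118 and 51 counts, highest in replicate 2. The interval of replicate 2 over replicate 1 included 1 (0.99 to 1.71), as did that of replicate 3 over replicate 1 (0.78-fold, 0.55 to 1.10). That of replicate 3 over replicate 2 did not (0.60-fold, 0.42 to 0.84). Per TPM, Gzmb exceeded Prf1 22.0-fold (17.9 to 27.2), 25.8-fold (21.4 to 31.4) and 52.4-fold (39.6 to 70.7) in replicates 1, 2 and 3. Granzyme B transcripts were thus in large excess over perforin transcripts in each library, by a factor that in replicate 3 lay beyond the counting intervals of the others.

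Srgn (chr10:62493833-62527451, minus strand) had 1556, 1405 and 1664 TPM from 10657, 7820 and 6514 counts. It had the smallest relative spread of the 10 genes, with an SD of 8.44% of its mean. Its TMM-scaled level differed 1.23-fold (1.19 to 1.26) between replicate 1, the highest, and replicate 2, the lowest. By TPM and by total counts replicate 3 was the highest, so the order of replicates 1 and 3 depends on the scaling. Srgn exceeded Gzmb 13.4-fold, 7.80-fold and 7.49-fold in TPM.

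Nkg7 (chr7:43437073-43438249, plus strand) encodes a small membrane protein of cytotoxic granules that is needed for their efficient release. It had 315, 388 and 270.4 TPM from 1769, 1902 and 1012 counts, with replicate 2 the highest and replicate 3 the lowest. Ctsw (chr19:5465043-5468507, minus strand) encodes cathepsin W, a papain-like protease known from cytotoxic T cells and natural killer cells. It had 168.5, 182.9 and 124.9 TPM from 1593, 1448 and 762 counts. The TMM-scaled Ctsw level was close in replicates 1 and 2 (1.01-fold, 0.94 to 1.09) and lower in replicate 3 (0.74-fold replicate 1, 0.68 to 0.81). The TPM ratio of Nkg7 to Ctsw was 1.87, 2.12 and 2.17. Over the same libraries the ratio of Gzmb to Ctsw was 0.69 (0.64 to 0.74), 0.98 (0.92 to 1.06) and 1.78 (1.63 to 1.94), so which of the 2 protease genes was higher depended on the library.

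Serpinb9 (chr13:33003250-33017957, plus strand) encodes the mouse inhibitor of granzyme B. It had 16.3, 17.6 and 9.30 TPM from 481, 420 and 163 counts. Replicates 1 and 2 were close (0.97-fold, 0.85 to 1.11), and replicate 3 stood at 0.52-fold replicate 1 (0.44 to 0.63). Serpinb6b (chr13:32965209-32979067, plus strand), which encodes an inhibitor of granzyme A in the mouse, had 32.5, 34.0 and 22.1 TPM from 496, 441 and 223 counts. It too was close in replicates 1 and 2 (0.99-fold, 0.87 to 1.13) and lower in replicate 3 (0.70-fold replicate 1, 0.59 to 0.82). The 2 inhibitors kept a ratio of Serpinb6b to Serpinb9 of 1.99 (1.75 to 2.26), 1.93 (1.68 to 2.21) and 2.38 (1.94 to 2.93), with overlapping intervals.

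With granzymes highest and inhibitors lowest in the same library, the ratio of their sums necessarily spread more than either sum. Most of the granzyme sum was Gzmb and most of the inhibitor sum was Serpinb6b, so that ratio does not pair an enzyme with its inhibitor. The 4 granzymes summed to 122.7, 186.1 and 235 TPM and the 2 inhibitors to 48.8, 51.6 and 31.4 TPM. The ratio of these sums was 2.52, 3.61 and 7.47. Gzmb exceeded Serpinb9 7.11-fold (6.40 to 7.91), 10.2-fold (9.17 to 11.4) and 23.9-fold (20.3 to 28.2), and the 3 intervals did not overlap. A ratio of TPM within a library does not depend on the scaling between libraries.

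**Figure D2:**
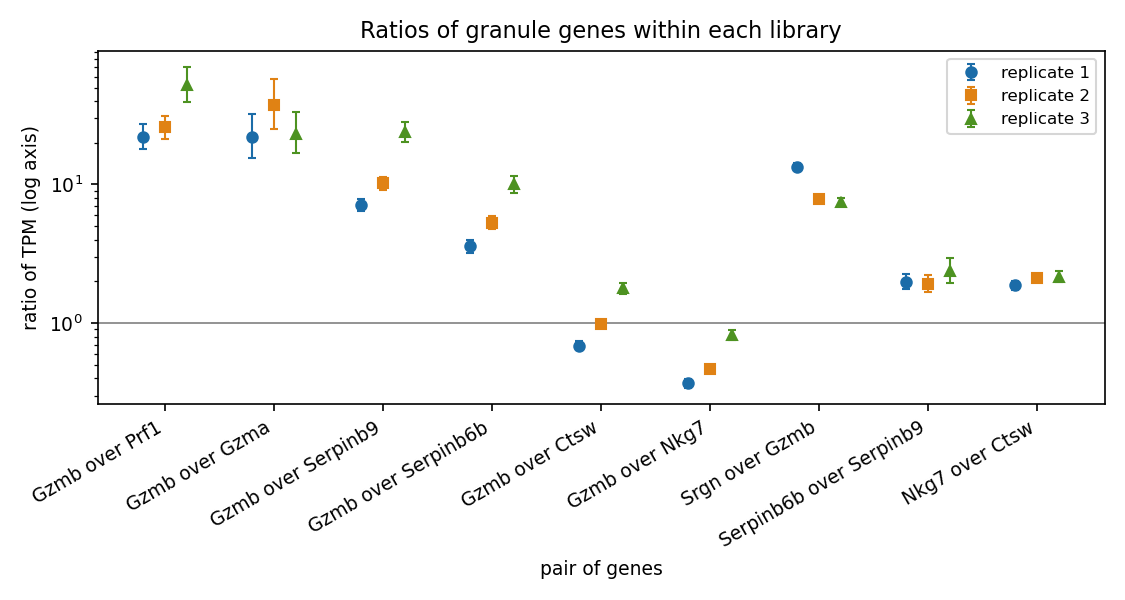
Ratio of TPM (log axis) for pairs of granule genes within each library, with exact 95% intervals of counting error. The ratios of Gzmb to Prf1, Serpinb9, Serpinb6b, Ctsw and Nkg7 are highest in replicate 3, while that of Serpinb6b to Serpinb9 stays at 1.93 to 2.38.

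In the order of mean TPM, neighbours whose libraries did not overlap were Srgn and Nkg7 (4.75-fold), Nkg7 and Gzmb (1.88-fold), Ctsw and Serpinb6b (5.38-fold), Serpinb6b and Serpinb9 (2.05-fold), and Prf1 and Gzmk (4.97-fold). Gzmb and Ctsw, Serpinb9 and Gzma, Gzma and Prf1, and Gzmk and Gzmm overlapped and are not ordered beyond their spread.

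Genes averaging 10 counts or more were tested for differences between the 3 libraries by a chi-square test against sampling noise, with Benjamini-Hochberg adjustment over 12997 tested genes. All 8 tested granule genes varied, in a background where 65.4% of tested genes did. The adjusted p of this chi-square test was 9.35e-55 for Gzmb, 7.73e-41 for Srgn, 2.73e-14 for Nkg7, 2.28e-12 for Serpinb9, 1.69e-12 for Ctsw, 2.45e-05 for Serpinb6b, 0.0115 for Prf1 and 0.015 for Gzma. Gzmk and Gzmm were under the count minimum, and without it their adjusted p were 0.24 and 0.292 by the same chi-square test. Srgn had a very small p at a 1.23-fold range because it rests on 6514 to 10657 counts, while Gzma had a 2.06-fold range on 25 to 37.

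These calls hold against counting noise alone. When edgeR's likelihood-ratio test also allowed for the trended dispersion between the same 3 libraries, 0 of the 8 genes varied. By it 0 of them had an unadjusted p under 0.05, and 1.71% of all tested genes varied. That dispersion was estimated from the same differences between libraries that the test then examines. A low number of passing genes is therefore partly built in, and the result does not show that the 8 genes were stable. A gene that passes spread more than the trend. The lowest unadjusted p by that edgeR test were 0.104 for Serpinb9 and 0.11 for Gzmb. Without replicate 3, 3 of the 8 genes varied by the chi-square test, namely Srgn, Nkg7 and Gzmb, and 32.2% of tested genes did. The differences of Ctsw, Serpinb6b, Serpinb9, Gzma and Prf1 thus needed replicate 3 to pass, and that of Prf1 also needed replicate 2.

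**Figure D3:**
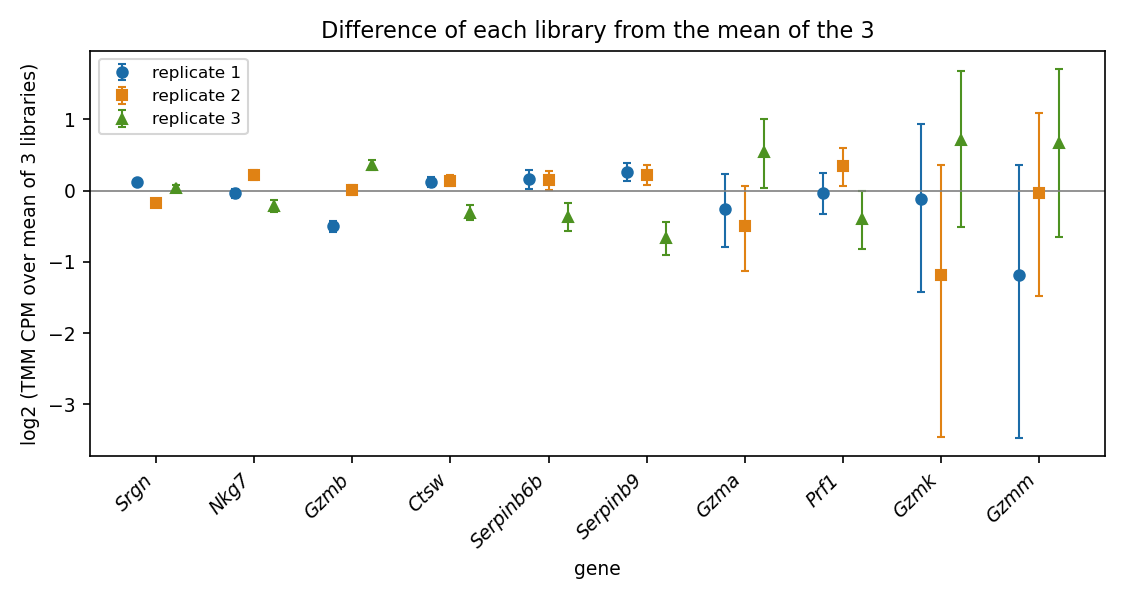
Log2 ratio of each library's TMM-scaled CPM to the mean of the 3 libraries, with exact 95% Poisson intervals of the counts. Replicate 3 lies above the others for the 4 granzymes and below them for Nkg7, Ctsw, Serpinb6b, Serpinb9 and Prf1. For Gzma, Gzmk and Gzmm the interval of replicate 3 overlaps those of the others, and for Prf1 it overlaps that of replicate 1.

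Libraries were also set beside markers of cells that could carry granule transcripts of their own. Of 9 natural killer or innate lymphoid markers 2 were detected, Tyrobp (5.18 ± 2.56 TPM) and Fcer1g (2.02 ± 1.05 TPM; SD, n = 3). Klra4 was at 0 in every library, and the defining receptor gene Ncr1 was at 0, 0 and 0.14 TPM. The list summed to 13.7, 5.77 and 10.6 TPM in replicates 1, 2 and 3. Its members differed in direction. Tyrobp had 6.37, 2.24 and 6.93 TPM, highest in replicate 3. Fcer1g had 3.16, 1.08 and 1.81 TPM and Klrb1c 2.97, 1.00 and 0.55 TPM, both highest in replicate 1. Of 5 CD8 T cell markers 2 were detected, and the list summed to 18.9, 17.0 and 16.7 TPM. Cd8a had 2.13, 1.17 and 0.66 TPM and Cd8b1 14.1, 13.8 and 12.3 TPM, both lowest in replicate 3. Crtam had 2.11, 1.30 and 2.16 TPM and Klrc1 0.64, 0.08 and 1.17 TPM, both highest in replicate 3, and Klrd1 had 0, 0.69 and 0.44 TPM. Of 5 gamma delta T cell markers 4 were detected, with Tcrg-C1 at 18.8, 18.0 and 5.43 TPM and Tcrg-C2 at 10.2, 6.51 and 10.5 TPM. The list's sum was 39.2, 31.3 and 19.6 TPM, and Sox13 was at 0 in every library.

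Srgn is also a main proteoglycan of mast cells and myeloid cells. Of 9 mast cell or basophil markers 7 were at 0 in every library, Mcpt4, Cpa3 and Tpsb2 among them, and Kit alone was detected (3.24, 1.52 and 6.12 TPM). No neutrophil marker of 8 was detected, with sums of 2.48, 0 and 7.59 TPM and S100a9 the highest at 1.00, 0 and 3.12 TPM. Of 7 macrophage or monocyte markers 3 were detected: Lyz2 at 17.7, 2.38 and 15.7 TPM, Cd68 at 4.14, 3.44 and 3.34 TPM and Csf1r at 1.37, 1.45 and 1.94 TPM. That list summed to 23.6, 8.34 and 21.7 TPM, and Adgre1 and Cd14 stayed under 0.6 TPM. B cell or plasma cell markers summed to 154.3, 76.8 and 183.6 TPM, with Cd79b at 60.8, 50.9 and 55.6 TPM and Jchain at 43.4, 4.70 and 69.6 TPM. Dendritic cell markers summed to 2.60, 3.10 and 3.50 TPM, most of it Zbtb46 at 2.00, 1.97 and 2.48 TPM, the 1 of 6 that was detected, with Clec9a at 0. Erythroid markers summed to 798, 5.30 and 23.4 TPM, with Hbb-bs at 288, 2.35 and 10.2 TPM, so replicate 1 stood apart on haemoglobin transcripts. Mast cell, neutrophil, dendritic and B or plasma cell sums were highest in replicate 3, as the granzymes were, and the T cell and Treg marker sum was lowest there (8172, 8366 and 5835 TPM). The median log2(TPM + 1) of those 9 markers was instead highest in replicate 3, at 8.49, 8.79 and 9.26. In replicate 3 that median was the value of Ctla4 alone, and it does not show a higher level of the list. Cd3e, Cd3g, Trac, Lck, Cd4, Il2ra and Ikzf2 were each lowest in replicate 3. Ctla4, a checkpoint receptor gene of Treg cells, had 190.2, 249.6 and 612 TPM, and Foxp3 was also highest in replicate 3. The adjusted p of Ctla4 was 0.00709 by edgeR with the trended dispersion, which was estimated from these same libraries. The part of these markers in the granule results was not tested. In bulk RNA, fewer cells of a type and less RNA per cell cannot be told apart.

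Other granzymes and clade B serpins were mostly at or near 0. Of 6 other granzymes, Gzmc was detected at 4.69, 6.97 and 2.28 TPM, and was lowest in replicate 3, unlike the 4 granzymes above. Gzmf had 5 counts in replicate 1 and 0 in the others, and Gzmd, Gzme, Gzmg and Gzmn were at 0 counts in every library. Of 12 other clade B serpins 2 were detected, Serpinb6a at 27.0 ± 3.33 TPM and Serpinb1a at 12.5 ± 4.52 TPM (SD, n = 3). Of these 12 serpins, 6 had 0 counts throughout, among them Serpinb9c and Serpinb9g.

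For the pathway lists that follow, counts of detected genes stand beside 45.3% of protein-coding genes, and counts of varying genes beside 65.4% of all tested genes by the chi-square test. With edgeR's trended dispersion, which was estimated from the same libraries, 0 genes of these lists varied, except Lta. A gene that did not pass is not thereby shown to be stable.

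Genes for making and sorting active granzymes were all present. Of 7 listed, 7 were detected and 4 varied between libraries by the chi-square test, against 65.4% of all tested genes. M6pr, a mannose 6-phosphate receptor that carries granzymes to lysosomes, had 210.2 ± 35.1 TPM. Ctsc, the protease that activates granzymes by trimming their amino end, had 87.7 ± 7.13 TPM. The lowest were Gnptab, which makes the mannose 6-phosphate tag, at 3.37 ± 0.88 TPM, and the protease gene Ctsl at 4.37 ± 2.98 TPM (SD, n = 3 for each).

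Of 13 matched genes for granule biogenesis and exocytosis, 12 were detected and 11 of 12 tested varied between libraries by the chi-square test (0 with the trended dispersion). The vesicle fusion gene Vamp8 was the highest at 281 ± 22.0 TPM, followed by the late endosome gene Rab7 at 267 ± 2.99 TPM. Lyst, the lysosome size regulator, had 7.15 ± 0.29 TPM, and Syt7 had 0 counts in every library (SD, n = 3 for each). The serglycin chain pathway was low in comparison: 7 of 10 glycosaminoglycan synthesis genes were detected, with B4galt7 highest at 28.1 ± 4.56 TPM and B3gat3 next at 12.4 ± 1.54 TPM. Chst11 at 0.45 ± 0.21 TPM and Csgalnact1 at 0.80 ± 0.31 TPM were the lowest of that list, of which 4 of 10 varied by the chi-square test, beside 65.4% of all tested genes, and 0 with the trended dispersion.

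Known transcriptional regulators of granule genes were unevenly present, with 5 of 8 detected and 5 of 6 tested varying by the chi-square test (0 with the trended dispersion). Id2 had 233 ± 21.6 TPM and Prdm1, which encodes Blimp-1, 18.0 ± 5.53 TPM. Eomes, a T-box factor that drives granule genes in CD8 T cells and natural killer cells, had 0.25 ± 0.06 TPM, and Zeb2 0.77 ± 0.42 TPM. Tbx21, also a T-box factor, was detected at 4.4, 5.64 and 3.1 TPM, and Runx3 at 10.01, 12.32 and 14.58 TPM. All 5 genes for death ligands and interferon gamma were detected, and 4 of 5 varied by the chi-square test and 1 of 5 with the trended dispersion. Lta, the lymphotoxin gene, was the highest at 71.1, 60.0 and 22.9 TPM, lowest in replicate 3, and its adjusted p was 0.0416 with edgeR's trended dispersion. Tnfsf10 followed at 16.8 ± 3.17 TPM, and Ifng (8.78 ± 4.32 TPM) and Fasl (9.13 ± 1.56 TPM) were the lowest of these 5.

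Known granzyme substrates and cell death genes were present in the same bulk libraries. All 11 listed were detected and 10 of 11 varied by the chi-square test (0 with the trended dispersion). The chromatin protein gene Hmgb2 had 452 ± 23.8 TPM and Set 287 ± 20.9 TPM, both targets of granzyme A. At the low end were Gsdme at 14.8 ± 1.45 TPM, which encodes a gasdermin cut by granzyme B, and the nuclease gene Dffb at 15.0 ± 6.99 TPM (SD, n = 3 for each).

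Transcript shares within a gene were read from both transcript tables. The distal Srgn start shown above gave 1.85%, 2.01% and 1.57% of the gene's TPM in the first table and 1.98%, 2.08% and 1.75% in the second. Transcripts from the proximal region thus held nearly all Srgn signal in every library. Srgn-201 held 94.8%, 87.8% and 72.6% of Srgn TPM in the first table and 97.4%, 92.6% and 75.0% in the second. The share of Srgn-205 was 3.17%, 10.2% and 25.7%, and in the second table it was listed at nearly 0 in replicate 1 and at 4.77% and 22.8% in replicates 2 and 3. Srgn-205 starts 183 bases upstream of Srgn-201, ends 256 bases earlier and encodes the same protein, and both tables had it highest in replicate 3.

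Ctsw signal was spread over retained-intron transcripts, which held 34.3%, 32.4% and 40.8% of its TPM in the first table and 38.8%, 35.5% and 44.3% in the second. For Nkg7 the retained-intron transcript stood at 17.6%, 9.48% and 5.40% in the first table and at 5.38%, 3.02% and 1.84% in the second. The order of the libraries was the same in both tables for Ctsw and Nkg7, while the size of the Nkg7 share was not. For Serpinb9 the tables disagreed: the transcript with the downstream start held 0.245%, 76.1% and 100% in the first and 100% in each library in the second. The split of Serpinb9 between its starts is therefore not readable here. Protein-coding transcripts held 74.9%, 100% and 80.5% of Serpinb6b in the first table and 42.5%, 64.7% and 53.8% in the second. Prf1-202 held 68.9%, 100% and 81.4% of Prf1 in the first table and 62.0%, 84.6% and 71.5% in the second. The few Gzmk counts were placed on a different transcript in each library in the first table, Gzmk-201, Gzmk-202 and Gzmk-203 in replicates 1, 2 and 3. These shares are estimates with no error of their own in the tables, and no test was made on them.

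**Figure D4:**
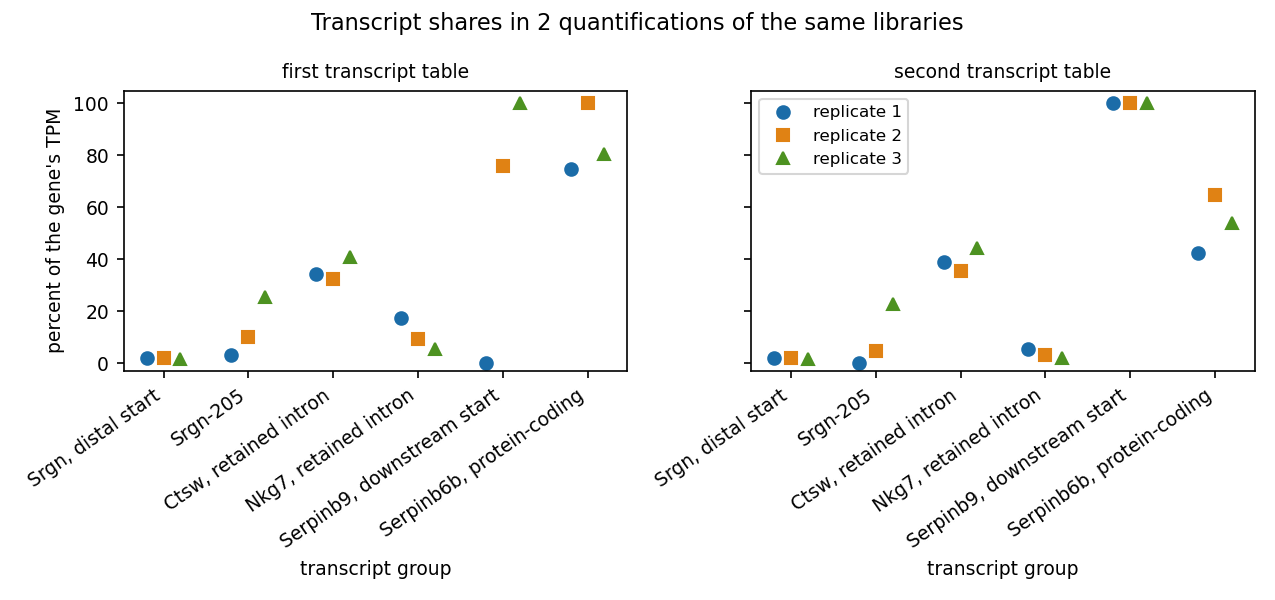
Percent of a gene's TPM in a transcript or group of transcripts, in the first (left) and second (right) transcript table, for replicates 1, 2 and 3. Srgn-205 is highest in replicate 3 in both tables, while the Serpinb9 transcript with the downstream start goes from 0.245% to 100% in the first table and is at 100% throughout in the second.

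In release M21 the Ctsw gene shares 9 exon bases with Fibp on the opposite strand, and the span of Gzmk overlaps that of Esm1 on the opposite strand with no shared exon base. The other 8 genes overlap no annotated gene. The sources used here do not say whether counting used strand.

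Among the 8043 protein-coding genes that averaged 100 counts or more, the genes most like Srgn in their pattern over the 3 libraries were 4921524J17Rik, Rnf149 and Serbp1, at distances of 0.0019, 0.0037 and 0.0047 between centred log2 TMM-scaled CPM. For Gzmk, which had the widest range, they were Gclc, Ctse and Iqcb1 at 0.44, 0.44 and 0.45, a comparison that rests on 3 to 8 Gzmk counts. A pattern over 3 libraries has few ways to differ, so such likeness is a description.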

How the data were processed

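The authors deposited, for each of 3 polyA RNA-seq libraries, a gene table and a transcript table of expected counts and TPM on release M21 and mm10, made from transcriptome alignments, per the file headers and notes. The deposited transcript table also gives each transcript's percent of its gene, and the gene table other estimates, among them a posterior SD of the count. A second deposited transcript table of estimated counts and TPM was made from read files and an index. A deposited M4 gene table holds whole-number counts. The sources used here name no program, although column names are those RSEM and kallisto write.

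Depth was 10981924, 9700630 and 6667391 expected counts, and 3 counts served as the floor. Entries that are no mouse gene took 0.113%, 0.166% and 0.0873% of counts and were left out. Expected counts were rounded and compared across the 3 libraries with a chi-square test (2 degrees of freedom) against TMM sizes from edgeR 4.0.16 (R 4.3.3), for genes averaging 10 counts or more, at a Benjamini-Hochberg adjusted p of 0.05. The test was tried on simulated data. Alternatives were DESeq2 1.42.0 size factors, total counts, no count minimum, edgeR likelihood-ratio tests with dispersion 0 and with the trended dispersion, the M4 counts, the second table, a TPM minimum of 5, a pseudocount of 0.1 in place of 1, and leaving out each library. M4 counts were divided by coding length, because their ratio to the expected counts was 0.763 in the lowest and 1.60 in the highest tercile of genes by coding share. Of 22457 M4 genes 22195 matched M21 by ID. Vamp7 was not matched by symbol.

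The genes named were all 10 granule genes, the 2 highest and 2 lowest of each pathway list by mean TPM, and marker genes from the same rule in part. Likeness was measured for the highest and the widest-ranging gene. The genes and lists were chosen with earlier results of these data known. Other markers and relatives were named after their values were seen. Sequences came from RefSeq promoter windows and release M21 transcripts. No amino acid sequence was used here.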

Additional observations from a re-analysis of the deposited data

How the results depend on the processing

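All 8 tested genes kept their call under DESeq2 size factors, total counts and edgeR with dispersion 0. The number varying was 0 with edgeR's trended dispersion, which was estimated from the same libraries and so does not show stable levels. The number was 3 to 8 when 1 library was left out, lowest without replicate 3. The number detected was 6 at a TPM of 5, 8 in the second table and 10 by M4 counts above 3. The median log2 level of 4.41 was 3.60 in the second table and 5.51 from M4 counts per coding length, and 4.28 to 4.63 with 1 library left out. TPM levels shifted between quantifications: 8 of 10 genes moved by over 1 SD in the second table (0.504 to 1.47 times) and 8 from M4 counts (1.34 to 3.28 times), where the 10546 protein-coding genes with a mean TPM of at least 1 shifted by a median of 0.588 and 1.31 times. The cause was not tested. Without replicate 3 the lowest level, that of Gzmk, was 0.578 of its mean over all 3. On M4 counts 9 of 10 genes varied, Gzmk among them (adjusted p 0.00278 by chi-square, 0.24 on expected counts without a minimum) and Gzmm not. The few counts of both limit what can be read. No paired analysis was possible because there is 1 group.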
